A study of Homo sapiens with 30 samples.

Results

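The genes described here are 37 genes of protein folding and degradation in the endoplasmic reticulum. They were chosen by gene name for their known roles, with earlier results of these data known. All were found among the 38122 genes of the deposited table. They comprised 13 chaperones and co-chaperones, 7 disulfide isomerases and oxidases, 10 degradation genes, 3 translocation genes, and the 3 stress sensors together with the transcription factor XBP1. Their RNA was measured by sequencing in 30 libraries of 3 established human carcinoma lines. SiHa derives from the cervix, HCT116 from the colon and FaDu from the hypopharynx. In each line, 5 libraries came from cells held at pH 6.5 for at least 1 month and 5 from cells held at pH 7.4, and no length of culture is given for the cells at pH 7.4. All groups shared a DMEM medium with 10 mM glucose, 2 mM glutamine, 10% serum, 25 mM HEPES and 25 mM PIPES, at 37 °C in 5% CO2. No genetic change and no drug is named for any group.

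Values are normalised read counts, that is, reads per gene divided by a size factor of the library. The libraries held 21.02 to 55.68 M reads, and 3 reads, the most that a count of 0 allows, were worth 1.90 to 5.01 normalised counts. Separate cultures, or populations adapted apart from each other, are not stated for the replicates of any group, so the p-values cover library-to-library spread alone, which may be technical. RNA of whole cultures was sequenced, so fewer expressing cells and less RNA per cell cannot be told apart.

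Nascent secretory and membrane proteins enter the endoplasmic reticulum through the SEC61 channel, fold with chaperones and disulfide isomerases, and are sent back to the cytosol for degradation when folding fails. A load of unfolded protein is sensed by IRE1 (encoded by ERN1), ATF6 and PERK (encoded by EIF2AK3), which together start the unfolded protein response. Activated ATF6 raises mainly chaperone genes, IRE1 splices XBP1 RNA into the form that raises mainly degradation and translocation genes, and PERK acts through the translation factor eIF2 and the transcription factor ATF4. Counts per gene do not tell spliced from unspliced XBP1 RNA, and they do not show the activity of a sensor.

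The promoters of several members described below carry letters read by this response, and they are printed because the members that share them are followed together through the results. ATF6 and XBP1, with the CCAAT-binding factor NF-Y, read the endoplasmic reticulum stress element, ERSE, whose letters are CCAAT, any 9 bases and CCACG, and its shorter form ERSE-II, whose letters are ATTGG, any 1 base and CCACG. RefSeq promoters on GRCh38.p14, from 250 bases before to 50 bases after each start, were matched to 34 of the 37 members, with DERL1, DERL3 and PDIA3 not matched. Both strands were searched. ERSE stood in 10 of the 42 promoters of these members, from 8 genes, against 0.0769% of 35116 promoters of the same length. Of the 10, 3 are promoters of CANX whose matches have identical letters, so a single site may be counted 3 times. ERSE-II stood in 3 of the 42, from 3 genes, against 0.0541% of the promoters. The stretches below carry the ERSE matches of HSPA5 (chr9:125241379-125241421, minus strand), HSP90B1 (chr12:103930204-103930351, plus strand), CRELD2 (chr22:49918542-49918584, plus strand), CALR (chr19:12938372-12938414, plus strand), PDIA6 (chr2:10812841-10812883, minus strand), ERO1B (chr1:236282171-236282208, minus strand) and XBP1 (chr22:28800591-28800633, minus strand). They are followed by the ERSE-II matches of HYOU1 (chr11:119057262-119057402, minus strand), SDF2L1 (chr22:21642102-21642136, plus strand) and HERPUD1 (chr16:56932013-56932047, plus strand). Each reads 5′ to 3′ in the direction of its gene, and capitals mark the matches. Capitals that begin with CGTGG are matches read from the opposite strand.
HSPA5: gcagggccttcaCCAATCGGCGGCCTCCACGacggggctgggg
HSP90B1: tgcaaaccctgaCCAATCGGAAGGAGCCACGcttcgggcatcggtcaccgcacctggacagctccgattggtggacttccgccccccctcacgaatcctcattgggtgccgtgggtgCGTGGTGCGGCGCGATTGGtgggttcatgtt
CRELD2: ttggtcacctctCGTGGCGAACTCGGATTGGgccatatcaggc
CALR: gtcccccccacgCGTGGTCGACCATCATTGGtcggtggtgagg
PDIA6: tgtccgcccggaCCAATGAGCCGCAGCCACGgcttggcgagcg
ERO1B: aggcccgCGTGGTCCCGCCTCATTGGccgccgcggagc
XBP1: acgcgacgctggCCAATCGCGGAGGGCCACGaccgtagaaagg
HYOU1: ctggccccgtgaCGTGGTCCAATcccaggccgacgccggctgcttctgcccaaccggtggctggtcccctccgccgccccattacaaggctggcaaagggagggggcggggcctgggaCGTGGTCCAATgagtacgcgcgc
SDF2L1: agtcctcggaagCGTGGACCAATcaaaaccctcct
HERPUD1: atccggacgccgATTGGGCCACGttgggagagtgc

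CANX was the other member with ERSE. The core of the unfolded protein response element, TGACGTGG, stood in DNAJC10 and HYOU1, against 0.729% of the promoters, and in HYOU1 it overlapped an ERSE-II match. The ATF4 element TGATGNAA stood in HERPUD1, against 3.62% of the promoters. A match describes letters in this window only and does not show that a factor binds there.

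Of the 30 libraries, 9 were kept apart because their reads went against their labels or because they stood outside their group, and the comparisons below use the other 21. In FaDu pH 7.4 replicates 2 to 5, genes restricted to HCT116 reached 80.4%, 30.6%, 42.7% and 61.9% of their HCT116 level. In HCT116 pH 6.5 replicates 5 to 7, genes restricted to SiHa reached 37.4%, 101% and 103% of their SiHa level. SiHa pH 7.4 replicates 6 and 7 had 2817 and 2863 normalised counts of VIM, a mesenchymal filament gene, against at most 165 in the other SiHa libraries. In the 21 libraries, the restricted genes of another line reached at most 0.0708% of their level. These genes were picked for low values in the FaDu pH 6.5, HCT116 pH 7.4 and SiHa pH 6.5 libraries of the other lines. Low values there thus follow in part from that choice. In the used libraries of the other groups they reached at most 0.0497%. Keeping the 9 libraries apart left 5 libraries at pH 6.5 and 3 at pH 7.4 for SiHa, 2 and 5 for HCT116, and 5 and 1 for FaDu. The squamous markers were all found in FaDu, DSG3 stayed under 10 normalised counts in SiHa, and of 10 colon markers 5 stayed under 10 in HCT116 at pH 6.5 and 2 at pH 7.4. The summed squamous markers were 300631 to 474637 at pH 6.5 and 544743 at pH 7.4 in FaDu, the summed colon markers 10444 to 11183 at pH 6.5 and 14585 to 16382 at pH 7.4 in HCT116. The 8 plasma-cell markers were listed because those cells are rich in these genes. Of them, 5 stayed under 10 in FaDu at pH 6.5 and 6 at pH 7.4, JCHAIN and MZB1 among them. The sum of the 8 was 7197 to 10215 at pH 6.5 and 11876 at pH 7.4, apart in the same direction as the members. Only 3 markers reached 10 at pH 6.5 and 2 at pH 7.4, so the sum rests on those few. The part of cell state in the results below was not tested.

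Together the 37 genes took a somewhat larger share of the reads at pH 6.5 in SiHa and HCT116, and a smaller share at pH 6.5 in FaDu. In SiHa the share was 0.808%, 0.776%, 0.716%, 0.702% and 0.693% at pH 6.5, against 0.663%, 0.678% and 0.690% at pH 7.4. In HCT116 it was 0.744% and 0.676% at pH 6.5, against 0.572%, 0.632%, 0.568%, 0.556% and 0.554% at pH 7.4. In FaDu it was 0.683%, 0.523%, 0.560%, 0.571% and 0.497% at pH 6.5, against 1.23% in the 1 library at pH 7.4 (95% Wilson interval 1.23 to 1.24%, counting error only). The groups did not overlap in any line, and the FaDu library at pH 7.4 lay above all other libraries. The 4 FaDu pH 7.4 libraries with HCT116 reads had shares of 0.689 to 0.728%.

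**Figure D1:**
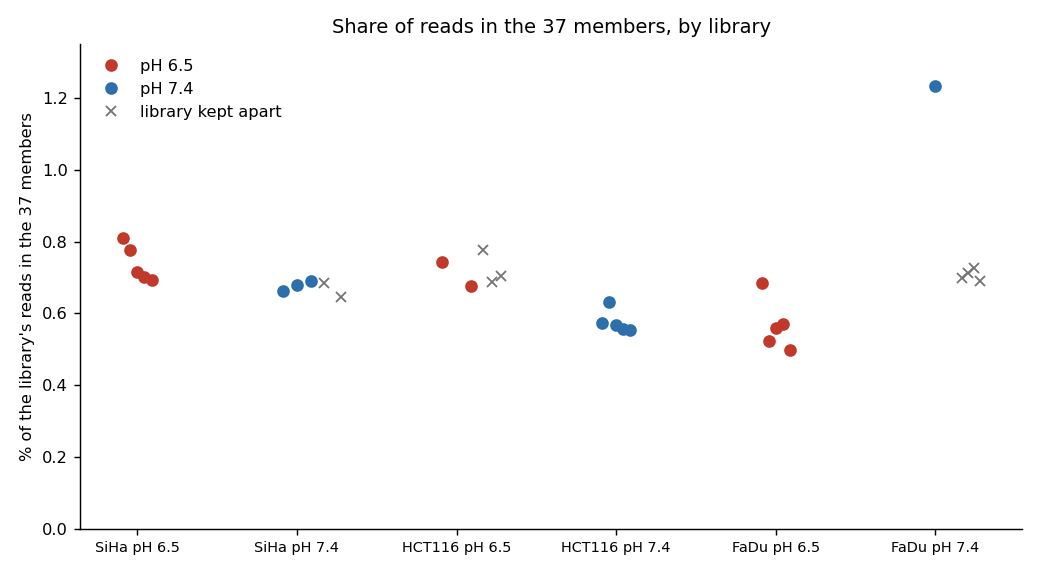
Share of each library's reads in the 37 genes, in percent, by labelled line and pH, with 1 point per library and crosses for the 9 libraries kept apart. The FaDu library at pH 7.4 that was not kept apart stands at 1.23%, and every other library lies between 0.497% and 0.808%.

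Per kilobase of exon, the same genes led in each line. HSPA5 (BiP), the main Hsp70 chaperone of the compartment, had a mean of 5982 normalised counts per kb at pH 6.5 and 6399 at pH 7.4 in SiHa, 9755 and 6705 in HCT116, and 4591 and 20814 in FaDu, in the same order of pH. CALR (calreticulin), a lectin chaperone, had 11432 per kb at pH 6.5 and 10073 at pH 7.4 in SiHa, where it ranked above HSPA5. HSP90B1 (GRP94), the Hsp90 of the compartment, completed the leading 3 in every group. At the low end, the sensor gene ERN1 had 46.2 per kb at pH 6.5 and 69.5 at pH 7.4 in SiHa. DERL3, a derlin of the retrotranslocation machinery, had 82.7 per kb at pH 6.5 and 46.3 at pH 7.4 in SiHa, but 0.902 and 1.43 in HCT116 and 2.94 and 2.03 in FaDu. Exon lengths came from another annotation than the counts, so small differences in rank are uncertain.

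In SiHa, XBP1, CRELD1 and EDEM1 rose at pH 6.5 while ERN1 and DNAJC10 fell, and HSPA5 showed no called difference. Of the 37 genes, 7 were higher at pH 6.5 and 5 lower in the limma test, against 15.0% and 16.2% of all 18555 genes tested. Both shares of members lay near those of all genes. The median log2 change of the members was 0.10, against -0.01 for all genes. Libraries at pH 6.5 lay wholly above those at pH 7.4 for 9 members and wholly below for 4, against 17.1% and 18.4% of all genes.

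Among the sensors and XBP1, the pattern was split. XBP1, the transcription factor activated by IRE1, had 4803, 5567, 4076, 4459 and 5909 normalised counts in the SiHa libraries at pH 6.5, against 3279, 2780.1 and 2686 at pH 7.4. No library at pH 6.5 fell below any at pH 7.4, and the log2 change was 0.76 ± 0.13 (SE, adjusted p = 0.00173). ERN1, which encodes IRE1 itself, had 431, 549.9, 574, 481 and 471 at pH 6.5, against 701, 802 and 761 at pH 7.4. Every library at pH 6.5 was below every one at pH 7.4, with a log2 change of -0.59 ± 0.12 (adjusted p = 0.00446). ATF6 averaged 2877 ± 225 at pH 6.5 and 2682 ± 204 at pH 7.4, and EIF2AK3 646 ± 113 and 666 ± 53.2 (SD, n = 5 and 3). Neither passed the test.

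Of the 13 chaperones, 3 rose and 1 fell. CRELD1, a membrane protein with cysteine-rich EGF-like domains, had 1230.4, 1196, 869.7, 989 and 1371 normalised counts at pH 6.5, against 751, 587 and 605 at pH 7.4. The groups did not overlap, and the log2 change was 0.79 ± 0.15 (adjusted p = 0.00347). DNAJB11 (ERdj3), a co-chaperone of HSPA5, rose by a log2 change of 0.31 ± 0.09 (adjusted p = 0.0228), and HSP90B1 by 0.31 ± 0.10 (adjusted p = 0.0407). DNAJB9 (ERdj4), a co-chaperone that helps keep IRE1 silent, averaged 402 ± 86.6 at pH 6.5 and 571 ± 46.8 at pH 7.4 and fell by 0.53 ± 0.18 on the log2 scale (adjusted p = 0.0416). HSPA5 had 25917, 27548, 21809, 21037 and 20586 at pH 6.5, against 25717, 24842 and 24458 at pH 7.4. These values overlapped, with a log2 change of -0.11 ± 0.11 (adjusted p = 0.490).

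The disulfide genes divided 2 and 2, with 3 not called. P4HB, the classical protein disulfide isomerase, averaged 21898 ± 2163 at pH 6.5 and 17388 ± 1171 at pH 7.4 (log2 change 0.33 ± 0.10, adjusted p = 0.0282). ERO1B, an oxidase that recharges these isomerases, averaged 892 ± 128 and 669 ± 92.8 in that order of pH (0.41 ± 0.13, adjusted p = 0.0373). DNAJC10 (ERdj5), a reductase that opens disulfides before degradation, had 3137, 3551, 3719.8, 3573 and 3549 at pH 6.5, against 4650.0, 5273 and 5165 at pH 7.4. Each library at pH 6.5 was lower than each at pH 7.4, with a log2 change of -0.52 ± 0.09 (adjusted p = 0.00152). PDIA6 also fell, by 0.38 ± 0.11 on the log2 scale (adjusted p = 0.0200).

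Of the 10 degradation genes, only EDEM1 was called in the SiHa test. EDEM1 takes part in trimming mannose from misfolded glycoproteins, and it had 1949, 2462, 2011, 2110.2 and 2178 normalised counts at pH 6.5, against 1619, 1641 and 1571 at pH 7.4. The groups did not overlap, and the log2 change was 0.41 ± 0.09 (adjusted p = 0.00833). DERL3 had 334, 299, 218, 190.4 and 528 at pH 6.5, against 170.1, 197 and 160.2 at pH 7.4, with 1 library at pH 6.5 inside the pH 7.4 range and an adjusted p of 0.0640. The remaining 8, which include the ubiquitin ligase SYVN1 with its partners SEL1L and HERPUD1, had log2 changes between -0.28 for EDEM2 and 0.28 for OS9, and none was called. Among the translocation genes, SEC61B, a small subunit of the channel, fell by 0.33 ± 0.10 on the log2 scale (adjusted p = 0.0327), although its groups overlapped.

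The calls of XBP1, CRELD1, EDEM1, ERN1 and DNAJC10 held when any 1 of the 8 libraries was left out, and the other 7 calls did not. Without SiHa pH 7.4 replicate 1, 4 or 5, the higher members numbered 3, 4 and 4, against 10.5%, 11.5% and 9.34% of all genes, and the lower ones 3, 3 and 2, against 10.4%, 11.7% and 9.77%. Without pH 6.5 replicate 5, 6 or 7, the lower ones numbered 3 each time, against 14.0%, 12.7% and 15.1%. Calls over all genes were fewer under each of these omissions as well. The 2 libraries kept apart at pH 7.4 had 2652 and 3002 normalised counts of XBP1, 581 and 664 of CRELD1, and 5411 and 5268 of DNAJC10, values on the side of the pH 7.4 group. With both included, 12 members were higher and 6 lower, against 19.7% and 21.1% of all genes. Fibroblast and mesenchymal markers in SiHa summed to 1135 to 3494 at pH 6.5 and 2980.0 to 4249 at pH 7.4, which overlap. The colon markers summed to 53.8 to 147 at pH 6.5 and 476 to 573 at pH 7.4, which do not, with 7 of 10 under 10 at either pH. The part of these markers in the result was not tested.

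**Figure D2:**
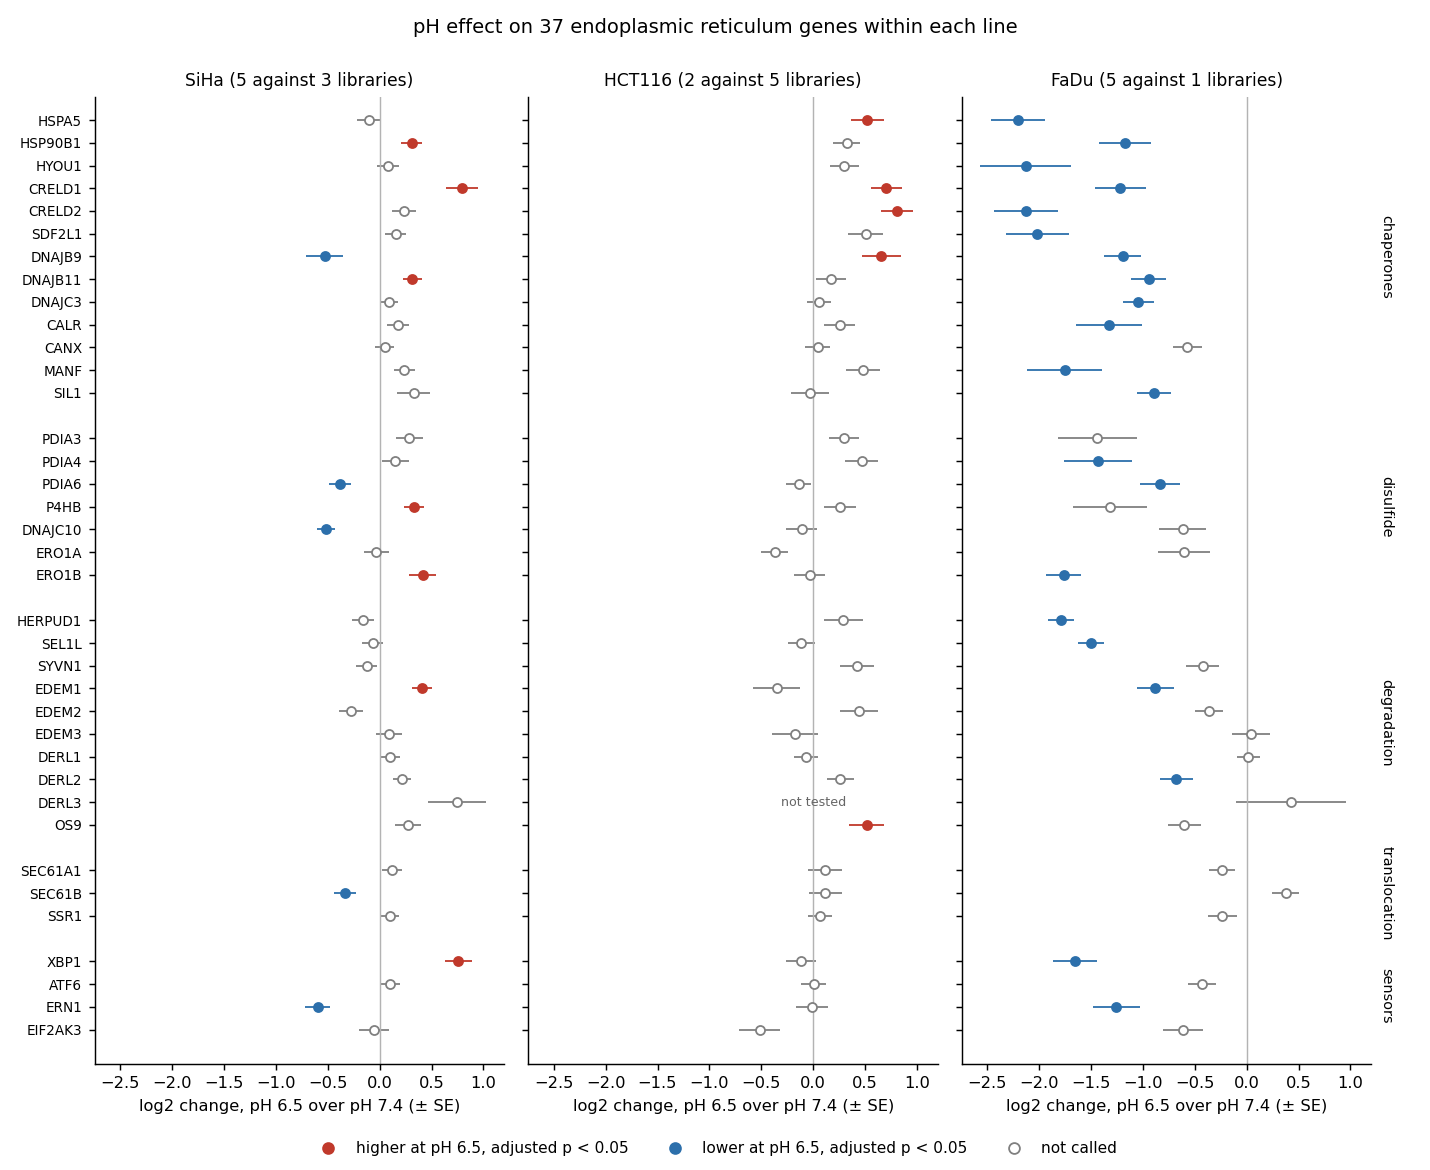
Log2 change of each of the 37 genes at pH 6.5 over pH 7.4, with its standard error, in 1 panel per line and grouped by role, with filled points for adjusted p under 0.05. In SiHa 7 genes lie to the right and 5 to the left among those called, in HCT116 5 lie to the right, and in FaDu 21 lie to the left.

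In HCT116, the genes called were chaperones and the lectin OS9, and they rose at pH 6.5. HSPA5, CRELD1, CRELD2, DNAJB9 and OS9 were higher, 5 of the 36 members tested, against 9.11% of all 18885 genes tested, so the count lies little above the background. No member was called lower, against 11.1% of all genes. The edgeR and DESeq2 tests also called 0 lower, with the shares of all genes in those tests not given. ERO1A and EIF2AK3 were lower at an unadjusted p under 0.05. The median log2 change of the members was 0.14, against -0.01 for all genes. Libraries at pH 6.5 lay wholly above those at pH 7.4 for 9 members and wholly below for 1, against 17.4% and 18.7% of all genes.

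HSPA5 had 45081 and 31163 normalised counts in the HCT116 libraries at pH 6.5, against 23285, 29704, 27227, 27146 and 23653 at pH 7.4. The lower library at pH 6.5 was close to the highest at pH 7.4, and the log2 change was 0.52 ± 0.16 (adjusted p = 0.0360). It was 0.26 without pH 6.5 replicate 1 and 0.79 without pH 6.5 replicate 3, and the call was lost without pH 6.5 replicate 1 or pH 7.4 replicate 5, 6 or 7. CRELD2, a secreted relative of CRELD1 that is induced by stress of this compartment, had 2319 and 1688 at pH 6.5, against 1243, 1154, 1192, 1105 and 965 at pH 7.4. Both libraries at pH 6.5 were above all at pH 7.4, by a log2 change of 0.81 ± 0.16 (adjusted p = 0.00363). CRELD1 had 699 and 672 at pH 6.5, against 424, 438, 416, 451 and 375 at pH 7.4 (0.71 ± 0.15, adjusted p = 0.00548). DNAJB9 had 1278 and 1036 at pH 6.5, against 642, 956, 637, 834 and 632 at pH 7.4 (0.66 ± 0.19, adjusted p = 0.0302). For both genes, the pH 6.5 libraries lay above all those at pH 7.4. OS9, a lectin that presents trimmed glycoproteins for degradation, had 4903 and 3652 at pH 6.5, against 3852, 2827, 2756, 2737 and 2768 at pH 7.4. Its groups overlapped, at a log2 change of 0.52 ± 0.17 (adjusted p = 0.0473), which was 0.30 without pH 6.5 replicate 1. The call of OS9 was also lost without pH 7.4 replicate 3, 5, 6 or 7.

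Several further chaperones had estimates above 0 without passing the test. MANF, a secreted stress-induced factor that binds HSPA5, had 3906 and 3085 at pH 6.5, against 2088 to 2986 at pH 7.4 (adjusted p = 0.0584). SDF2L1, a partner of DNAJB11, had 2569 and 1611 at pH 6.5, against 1356 to 1555 at pH 7.4 (adjusted p = 0.0517). In all, 12 of the 13 chaperone estimates were above 0. The 7 disulfide genes had estimates on both sides and none was called. XBP1 had 3020.3 and 2788 at pH 6.5, against 2830.1, 3845, 2827, 3265 and 3074 at pH 7.4. Those ranges overlapped, with a log2 change of -0.12 ± 0.14 (adjusted p = 0.601). DERL3 was not tested, with 1.14 and 5.70 at pH 6.5 and 1.23 to 8.47 at pH 7.4, close to the limit of 3 reads.

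The HCT116 calls rest on a pair of libraries at pH 6.5 that differed from each other. On simulated data, tests with 1 or 2 libraries in a group called more unchanged genes than the nominal rate. By how much is not given. Without HCT116 pH 6.5 replicate 1, 1 member was higher, against 4.45% of all genes, and without pH 6.5 replicate 3, 11 members were higher, against 7.42%. Without pH 7.4 replicate 5, 6 or 7, the number higher was 2, 3 and 2, against 6.87%, 7.25% and 6.79%. Without pH 7.4 replicate 1 it was 8, against 12.9%, with 2 members lower, against 14.5%. CRELD1 alone was called under each of these omissions. With all libraries as labelled, SiHa reads included, 6 members were higher and 1 lower, against 8.56% and 9.62% of all genes. The summed colon markers, given above, were lower at pH 6.5 with no overlap, and their part in the result was not tested.

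**Figure D3:**
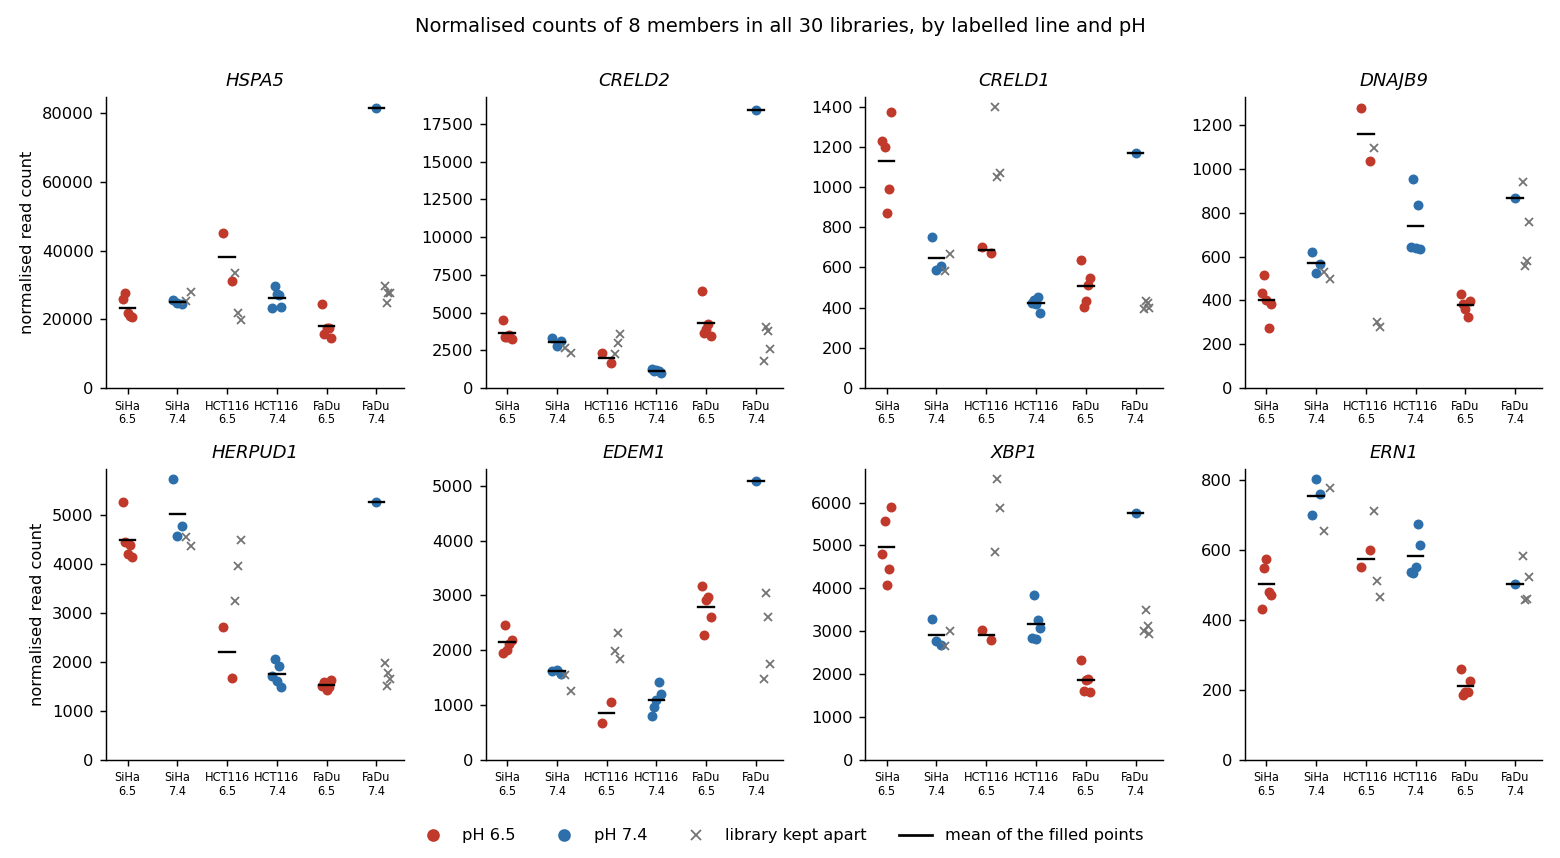
Normalised read counts of HSPA5, CRELD2, CRELD1, DNAJB9, HERPUD1, EDEM1, XBP1 and ERN1 in all 30 libraries, by labelled line and pH, with bars for the means of the libraries used and crosses for the libraries kept apart. The FaDu library at pH 7.4 is the highest of all for HSPA5, at 81339.8, and for CRELD2, at 18426, and XBP1 at pH 6.5 lies above pH 7.4 with no overlap in SiHa.

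In FaDu, most of these genes were lower at pH 6.5, by more than 2 on the log2 scale for HSPA5 and CRELD2, but the pH 7.4 side is a single library. Of the 37 genes, 21 were lower in the limma test, against 3.12% of all 19170 genes tested, and 0 were higher, against 4.24%. The edgeR and DESeq2 tests also called 0 higher, and SEC61B alone was higher at an unadjusted p under 0.05. The shares of all genes in the edgeR and DESeq2 tests are not given here. The median log2 change of the members was -0.94, against -0.01 for all genes. The 5 libraries at pH 6.5 lay wholly below the 1 at pH 7.4 for 33 members and wholly above for 1, against 29.8% and 27.3% of all genes. The test assumes that the single pH 7.4 library varies like the 5 at pH 6.5. On simulated data, tests with 1 library in a group called more unchanged genes than the nominal rate. The pH 7.4 library is a replicate 1, and pH 6.5 replicate 1 stood apart over all genes. Its difference from the other pH 6.5 libraries, as chi-square per gene, was 59.5 to 126, against 7.11 to 24.9 among those. Its median member log2 ratio to the pH 7.4 library was -0.68, against -0.96 to -1.09 in those. The part of replicate number was not tested.

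The chaperones made up most of the calls, with 12 of 13 lower and a median log2 change of -1.22. HSPA5 had 24508, 15667, 17479.8, 17550.0 and 14508 normalised counts at pH 6.5, against 81339.8 at pH 7.4, a log2 change of -2.20 ± 0.26 (adjusted p = 0.0111). CRELD2 had 6438, 3639.6, 3908, 4275 and 3424 at pH 6.5, against 18426 at pH 7.4 (-2.13 ± 0.31, adjusted p = 0.0169). All 5 libraries at pH 6.5 were far below the 1 at pH 7.4 for both genes. HYOU1, a large Hsp70-like chaperone that recharges HSPA5, had 8387, 3417, 4232, 4666 and 3505 at pH 6.5, against 19988 at pH 7.4 (-2.13 ± 0.44, adjusted p = 0.0356). SDF2L1 fell by 2.02 ± 0.31 and MANF by 1.75 ± 0.36 on the log2 scale (adjusted p = 0.0179 and 0.0361). The other 7 called, HSP90B1, CRELD1, DNAJB9, DNAJB11, DNAJC3, CALR and SIL1, had log2 changes between -1.33 for CALR and -0.89 for SIL1. CANX (calnexin), the membrane-bound lectin chaperone, was the 1 chaperone not called, at 25114 ± 1660.0 (SD, n = 5) at pH 6.5 and 37252 at pH 7.4 (adjusted p = 0.0510).

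In the other roles the calls were fewer. The disulfide genes still had a median log2 change of -1.32, below that of the chaperones. Of the 7 disulfide genes, ERO1B, PDIA4 and PDIA6 were lower. ERO1B had 308, 254, 308, 286 and 297 at pH 6.5, against 986 at pH 7.4 (-1.76 ± 0.17, adjusted p = 0.00811). PDIA3, which pairs with the lectin chaperones, and P4HB had log2 changes of -1.44 ± 0.38 and -1.32 ± 0.36 and were not called (adjusted p = 0.0629 and 0.0673).

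Of the 10 degradation genes, HERPUD1, SEL1L, EDEM1 and DERL2 were lower, and the median log2 change of the role was -0.51. HERPUD1, a membrane scaffold of the SYVN1 ligase, had 1502, 1594, 1419, 1477 and 1618 at pH 6.5, against 5258 at pH 7.4 (-1.79 ± 0.12, adjusted p = 0.00324). SEL1L, the partner that stabilises SYVN1, had 5559, 4790.1, 4895, 4978 and 4721 at pH 6.5, against 14054 at pH 7.4 (-1.50 ± 0.13, adjusted p = 0.00680). The libraries at pH 6.5 lay within a narrow range for both. SYVN1 itself averaged 1232 ± 117 at pH 6.5 and stood at 1645 at pH 7.4 (adjusted p = 0.135), and DERL1 averaged 5642 ± 247 and stood at 5577, in that order of pH (adjusted p = 0.945).

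XBP1 had 2327, 1609, 1855, 1874 and 1576 normalised counts at pH 6.5, against 5761 at pH 7.4 (-1.65 ± 0.21, adjusted p = 0.0144). ERN1 had 259, 184, 193, 194 and 226 at pH 6.5, against 503 at pH 7.4 (-1.26 ± 0.23, adjusted p = 0.0258). ATF6 and EIF2AK3 were not called. No translocation gene was called. SSR1, of the translocon-associated complex, averaged 6213 ± 518 at pH 6.5 and stood at 7283 at pH 7.4, and SEC61B averaged 3627 ± 275 and stood at 2790.0.

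Members with ERSE or ERSE-II in the promoter window, the 11 described above, had 10 calls of lower in FaDu and a median log2 change of -1.76. The 23 matched members with neither had 11 such calls and a median of -0.68. In SiHa, 3 of the 11 were higher and 1 lower, against 4 and 4 of the 23, with medians of 0.15 and 0.10. In HCT116, 2 of the 11 and 3 of the 23 were higher, with medians of 0.29 and 0.12. Over all genes, 3.12% were lower in FaDu, 15.0% higher and 16.2% lower in SiHa, and 9.11% higher in HCT116. The class values are counts, and the difference between the promoter classes was not tested.

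Leaving out a FaDu library moved the count widely. Without pH 6.5 replicate 1, which held the highest pH 6.5 value of 32 of the 37 genes, 32 members were lower, against 18.7% of all genes, and 1 was higher, against 17.8%. Without pH 6.5 replicate 3 or 4, 3 members were lower, against 0.151% and 0.146% of all genes. Without replicate 2 or 5, 9 were lower, against 0.669% and 0.628%. The calls over all genes thus dropped with the members' count. ERO1B, HERPUD1 and SEL1L were called under each of these omissions. With all libraries as labelled, HCT116 reads included, 16 members were lower and 2 higher, against 22.3% and 24.0% of all genes, and the CRELD2 and EDEM1 log2 changes were 0.0042 and 0.13.

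The FaDu pH 7.4 libraries with HCT116 reads give a further view of the pH 7.4 level. FaDu reads were estimated at 11.9%, 68.5%, 54.0% and 30.9% of replicates 2 to 5, from the genes restricted to either line. Each member was then set beside the level expected for a mixture with HCT116 at pH 7.4, once with the FaDu part at its pH 6.5 mean and once at the level of pH 7.4 replicate 1. In replicates 3, 4 and 5, 37, 35 and 33 of the 37 members lay below the mixture made with replicate 1, and 24, 23 and 21 lay nearer to the mixture made with the pH 6.5 mean. In replicate 2, where few reads were FaDu, 21 lay below. There, 14 lay nearer to the pH 6.5 mixture and 23 nearer to the one with replicate 1. Replicates 3 to 5 thus did not show the levels of replicate 1 for most members.

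In replicate 3, the library richest in FaDu reads of the 4, HSPA5 had 24849 normalised counts, against 20544 expected with the FaDu pH 6.5 mean and 63976 expected with replicate 1. CRELD2 had 4032, against 3328 and 12979.8 in the same order. HERPUD1 had 1505, against 1595 and 4154. These 3 genes lay near the level expected from FaDu cells at pH 6.5. HYOU1 had 10246, against 5462 and 15838, and XBP1 had 3485, against 2264 and 4945, so both lay between the expected levels and nearer to the one with replicate 1. Of the 21 genes called in FaDu, all called against replicate 1, 16, 15 and 14 lay nearer to the pH 6.5 mixture in replicates 3, 4 and 5.

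**Figure D4:**
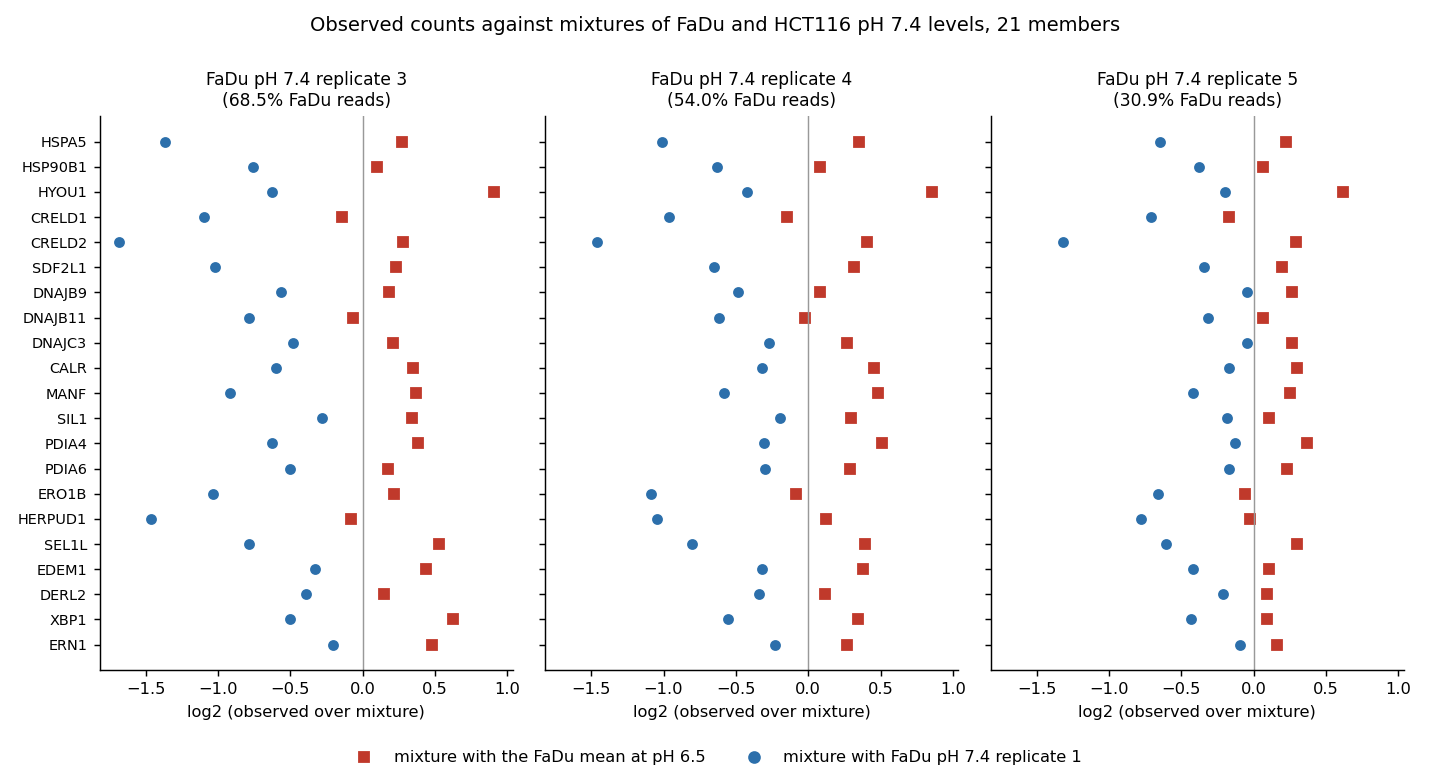
Log2 of the observed normalised count over that expected from a mixture of FaDu and HCT116 pH 7.4 levels, for the 21 genes called in FaDu, in FaDu pH 7.4 replicates 3, 4 and 5. Squares use the FaDu mean at pH 6.5 and circles use FaDu pH 7.4 replicate 1. All 21 circles lie below 0 in each panel. The genes were called against that replicate, so this follows in part from their selection.

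In 1 fit over the 21 libraries, the F-test of a difference in the effect of pH between the lines was passed by 29 of the 37 members, against 33.1% of all genes. This test includes the single FaDu library at pH 7.4, whose levels the FaDu pH 7.4 libraries with HCT116 reads did not show for most members. The contrast between HCT116 and SiHa called 5 members higher and 2 lower, as given below. Its estimate leaves FaDu out, but its fit included the FaDu libraries. The 8 members not called in the F-test were SEC61A1, SSR1, DNAJC10, ERO1A, EDEM3, DERL1, DERL3 and EIF2AK3. The smallest adjusted p-values belonged to CRELD2 (2.27e-06), ERO1B (2.28e-06), HSPA5 (2.33e-06), XBP1 (2.43e-06), SDF2L1 (8.39e-06) and SEL1L (1.04e-05). CRELD1 was the 1 gene called higher in SiHa and in HCT116 and lower in FaDu. DNAJB9 was lower in SiHa and in FaDu and higher in HCT116. For these patterns and those that follow, the shares of all genes are not given. Whether any of the patterns is unusual thus cannot be told. A further 5 were higher in SiHa, not called in HCT116 and lower in FaDu, 10 were called in FaDu alone, and 11 of the 36 genes tested in every line were called in none.

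The FaDu effect minus the SiHa effect was lower for 23 members, against 7.33% of all genes, and higher for SEC61B alone (0.71 ± 0.21 on the log2 scale), against 7.59%. The FaDu effect minus the HCT116 effect was lower for 25 members, against 7.62%, and higher for 0, against 8.30%. Both share the single FaDu library at pH 7.4, so they are not separate lines of evidence. XBP1 differed by -2.41 ± 0.25 between FaDu and SiHa, and HSPA5 by -2.73 ± 0.28 between FaDu and HCT116. The call of SEC61B was lost without SiHa pH 7.4 replicate 1 or 5.

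The HCT116 effect minus the SiHa effect does not involve that library in its estimate, though its fit included the FaDu libraries. It was higher for HSPA5, EDEM2, DNAJB9, SYVN1 and ERN1, against 12.6% of all genes, and lower for XBP1 and EDEM1, against 11.9%. The members called were thus near the background in the higher direction and under it in the lower one. The difference was 1.19 ± 0.26 for DNAJB9 (adjusted p = 0.00230) and 0.63 ± 0.23 for HSPA5 (adjusted p = 0.0475). It was -0.88 ± 0.21 for XBP1 (adjusted p = 0.00428) and -0.76 ± 0.24 for EDEM1 (adjusted p = 0.0242). The effect on HSPA5 and DNAJB9 was thus more positive in HCT116, and that on XBP1 and EDEM1 more positive in SiHa. The number higher was 2 without HCT116 pH 6.5 replicate 1, HCT116 pH 7.4 replicate 5, SiHa pH 6.5 replicate 6 or SiHa pH 7.4 replicate 5. It was 3 without HCT116 pH 7.4 replicate 3 or 7, SiHa pH 6.5 replicate 5 or 7, or SiHa pH 7.4 replicate 1 or 4. For such omissions, the shares of all genes are not given, so a general change in calls cannot be told from one in the members. The number lower was 1 without HCT116 pH 6.5 replicate 1 and 4 without HCT116 pH 6.5 replicate 3.

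Between lines at pH 7.4, most degradation genes were lower in HCT116 than in SiHa. Of the 37 members, 5 were higher in HCT116, against 34.7% of all genes, and 17 lower, against 33.8%. All 7 called degradation genes were lower in HCT116. HERPUD1 averaged 1753 ± 234 in HCT116 and 5017 ± 622 in SiHa (SD, n = 5 and 3, log2 difference -1.52 ± 0.13), and OS9 averaged 2988 ± 484 and 8792 ± 530.4 in the same order (-1.57 ± 0.14). DERL3 averaged 5.43 ± 2.90 in HCT116, near the limit of 3 reads, and 176 ± 19.1 in SiHa, and its log2 difference of -4.94 ± 0.44 depends on the pseudocount. The members higher in HCT116 by the most were SDF2L1 (0.52 ± 0.16), HSP90B1 (0.47 ± 0.13) and CANX (0.40 ± 0.09). Without SiHa pH 7.4 replicate 1 or 5, the number higher was 3, with the share of all genes not given for those omissions.

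At pH 6.5, FaDu differed from SiHa in 25 members, with 7 higher, against 37.9% of all genes, and 18 lower, against 32.3%. SEL1L averaged 4989 ± 334 in FaDu and 2726 ± 228 in SiHa (SD, n = 5 each, log2 difference 0.87 ± 0.08), with no overlap between the lines. DERL1 (0.80 ± 0.07) and ERO1A (0.67 ± 0.12), the main oxidase of the compartment, were also higher in FaDu. XBP1 and the 3 sensor genes were all lower in FaDu, with XBP1 at 1848 ± 300.4 in FaDu and 4963 ± 763 in SiHa (-1.43 ± 0.12). SIL1, an exchange factor of HSPA5, averaged 517 ± 46.1 in FaDu and 1563 ± 308 in SiHa (-1.58 ± 0.14), and ERO1B differed by -1.61 ± 0.11. DERL3 averaged 11.2 ± 3.73 in FaDu and 314 ± 133 in SiHa.

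HCT116 pH 6.5 replicates 6 and 7, whose reads were those of SiHa, had members nearest to the SiHa mean at pH 6.5 for 25 and 22 of the 37 genes. The SiHa mean at pH 7.4 was nearest for 11 and 13, and the HCT116 mean at pH 7.4 for 1 and 2. XBP1 had 6545 and 5874 normalised counts there, DNAJC10 had 3249 and 3192, and DNAJB9 had 303 and 277. Each of these pairs lay on the side of the SiHa pH 6.5 group. They were not added to any SiHa group, since their labels name another line.

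A further 156 genes of the same pathways, in lists fixed by role, were read beside the members. These lists too were chosen with earlier results of these data known. In SiHa, 30 of 150 tested were higher and 15 lower, with a median log2 change of 0.06. In HCT116, 20 of 153 were higher and 12 lower, with a median of 0.07. In FaDu, 2 of 152 were higher and 17 lower, with a median of -0.32. Over all genes, 15.0% were higher and 16.2% lower in SiHa, 9.11% and 11.1% in HCT116, and 4.24% and 3.12% in FaDu.

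In SiHa, the list of export to the Golgi and retrieval held the most genes called higher. It had 9 of 28 higher and 1 lower, against 15.0% and 16.2% of all genes. KDELR3, a receptor that returns escaped resident proteins, averaged 3497 at pH 6.5 and 1422 at pH 7.4 (log2 change 1.26 ± 0.19), and ARFGAP3, a regulator of retrograde vesicles, 3483 and 2059 (0.75 ± 0.12). MCFD2, a cargo receptor subunit, fell by 0.64 ± 0.09. Of the folding genes, PDIA5 and CLGN rose by 0.77 ± 0.14 and 0.80 ± 0.17, while ERP44, a retention factor of ERO1 enzymes, fell by 0.54 ± 0.10. In the stress signalling list, DDIT3 (CHOP), a transcription factor of cell death, averaged 385 and 172 in that order of pH (1.13 ± 0.24), and DDIT4, an inhibitor of mTORC1 signalling, averaged 1874 and 6047 (-1.78 ± 0.32). Of 9 receptors and factors of the autophagy of this compartment, 1 rose and 3 fell, with RETREG1 (FAM134B) lower by 0.52 ± 0.13 on the log2 scale.

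In HCT116, FKBP10, a prolyl isomerase that acts on collagen, had the largest change of the named genes, with a mean of 3232 at pH 6.5 and 1017 at pH 7.4 (1.67 ± 0.16, adjusted p = 1.89e-05). DDRGK1 and CDK5RAP3, which belong to the ufmylation machinery, rose by 0.70 ± 0.13 and 0.75 ± 0.12. DDIT3 had 209 and 730.2 at pH 6.5, against 115 to 200.2 at pH 7.4 (1.37 ± 0.39). Its log2 change was only 0.47 without HCT116 pH 6.5 replicate 1, and 2.28 without replicate 3. Its call was lost without HCT116 pH 7.4 replicate 3, 5 or 7. PPP1R15B, which restores eIF2 to its active form, fell by 0.65 ± 0.14. KDELR3 rose here too, by 0.47 ± 0.13, as it did in SiHa. SEC61A2, an alternative form of the channel subunit, fell by 0.73 ± 0.21 in HCT116 and by 0.97 ± 0.12 in SiHa.

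In FaDu, 8 of 22 stress signalling genes were lower at pH 6.5 and 0 higher, namely ATF4, DDIT3, TRIB3, CHAC1, NUPR1, INHBE, SESN2 and DDIT4. The shares over all genes in FaDu were 3.12% lower and 4.24% higher. Most of these 8 genes are known targets of ATF4. INHBE, an inhibin subunit, averaged 38.0 at pH 6.5 and stood at 899.6 in the 1 library at pH 7.4 (-4.59 ± 0.45), and NUPR1, a stress-induced nuclear protein, averaged 166 and stood at 1799 (-3.47 ± 0.34). DDIT3 averaged 222 and stood at 1405 (-2.69 ± 0.29). It was picked for naming after its values were seen, since it was called higher at pH 6.5 in SiHa and HCT116. It lost the HCT116 call under the omissions given above. Its effect differed between FaDu and SiHa by -3.82 ± 0.57 and between FaDu and HCT116 by -4.06 ± 0.59 (adjusted p = 0.000151 and 0.000109), both against the single FaDu library at pH 7.4. The FaDu pH 7.4 library that holds the high chaperone values thus also holds high values of these genes. NUPR1 had a log2 change of 0.46 in FaDu with all libraries as labelled. Among the other lists, GPX8, a peroxidase of the compartment, and HSPA13, an Hsp70 relative, fell by 1.79 ± 0.38 and 1.23 ± 0.24, and NGLY1, which strips glycans from retrotranslocated proteins, rose by 0.76 ± 0.16.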

How the data were processed

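RNA sequencing of 30 libraries was deposited as 1 table with a value per gene and library. The values are a signal, gene read counts that the authors divided by 1 size factor per library before they deposited them. Per the submitters' processing notes, the build was GRCh37 and the tools included STAR 2.6.1d, Trimmomatic 0.38, DESeq2 1.22.2, bcl2fastq 2.20 and FastQC. What counted the reads, with which annotation and strand setting, is not given in the sources used, so overlapping and antisense genes cannot be told apart. Of 38122 gene identifiers, 35466 were matched to a symbol. Dividing by the smallest value above 0 of each library gave whole reads, within 0.01 of a step, for 100% of values, and these reads gave the depths and the count tests.

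Libraries were grouped by their labels, and 9 were kept apart. Genes restricted to 1 line (24 in FaDu, 33 in HCT116, 27 in SiHa) measured the reads of each line in each library. The tests used limma 3.58.1 with an intensity trend on log2(normalised count + 1), for genes whose higher group averaged 10 or more, with 2-sided Benjamini-Hochberg adjusted p-values over all genes and calls at 0.05. A log2 change on this scale understates that of low genes. The pH comparisons were fitted within each line, and the differences between lines in 1 fit of the 21 libraries. Alternatives were edgeR 4.0.16 (quasi-likelihood) and DESeq2 1.42.0 on the recovered reads, TMM scaling, pseudocounts of 0.5 and 8, no filter, 1 fit over all lines, a replicate block, all libraries as labelled, and the omission of each library. On simulated data, the tests recovered the fold changes put in, and they called more unchanged genes than the nominal rate where a group held 1 or 2 libraries. Scripts ran in R 4.3.3 and Python 3.11.15, with matplotlib 3.10.9, scipy 1.17.1, pandas 2.3.3 and numpy 2.4.6.

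The members and lists were chosen with earlier results of these data known. HSPA5 and XBP1 were always named. Per role and line, so were the 3 called members with the largest changes. The rule also named the 6 members with the smallest F-test p-values, the 3 called members per direction between lines, and the 2 called genes per direction of every other list with a mean of at least 100. Members outside the rule (DERL3 in SiHa, ATF6, EIF2AK3, CANX, SYVN1 and others) are given to account for their role.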

Additional observations from a re-analysis of the deposited data

Results flagged for a closer look

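In 15 of the 111 groups of values tested, 13.5%, the highest or lowest library stood apart from its group by Dixon's criterion, where chance gives about 1 in 20. FaDu pH 6.5 replicate 1 was the high library for 9 genes. These were HYOU1 at 8387 normalised counts, CRELD2 at 6438, DNAJB11 at 4735, MANF at 3215, PDIA3 at 15643, P4HB at 23272, OS9 at 6721, SSR1 at 7109 and ATF6 at 2808. The same library lay nearest to FaDu pH 7.4 for these genes, and without it 32 members were called lower in FaDu.

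In HCT116 at pH 7.4, replicate 1 was low for HSP90B1, at 27084, and high for OS9, at 3852, and replicate 6 was low for ERO1B, at 429.9. In SiHa at pH 6.5, replicate 1 was high for CRELD2, at 4496, and for HERPUD1, at 5268, and replicate 4 was high for ERO1A, at 3154.

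The limma F-test of a difference in the effect of pH between lines was passed by 29 members. The root mean square of the contrasts between lines, on the log2 scale, was 1.72 for CRELD2, 1.57 for ERO1B, 1.55 for HSPA5, 1.82 for XBP1, 1.56 for SDF2L1 and 1.01 for SEL1L. All of these rest in part on the single FaDu library at pH 7.4.

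DERL3 reached 89.6, 327 and 489.5 normalised counts in HCT116 pH 6.5 replicates 5, 6 and 7, which were kept apart, against 1.23 to 8.47 in HCT116 at pH 7.4. The other HCT116 libraries at pH 6.5 had 1.14 and 5.70, and SiHa libraries had 160.2 to 528.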

How the results depend on the processing

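The SiHa count (7 higher, 5 lower) became 4 higher in 1 fit over all lines, 12 higher with all libraries as labelled, 11 higher with a replicate block as labelled, 3 lower with no filter and 2 lower with a replicate block. The HCT116 count (5 higher, 0 lower) became 9 higher with DESeq2, 8 higher with edgeR, 2 higher with no filter, 2 higher with a replicate block (2 as labelled), and 1 lower in 1 fit over all lines or as labelled. Over all genes in HCT116, 1435 were higher with no filter, against 1721 with it. The all-gene counts with DESeq2 and edgeR are not given for HCT116. A general rise in calls there cannot be told from one in the members. The FaDu count (0 higher, 21 lower) became 12 lower with no filter, 2 higher as labelled and 3 higher with the block as labelled. As labelled, the FaDu minus SiHa effect had 2 higher and 13 lower, the HCT116 minus SiHa effect 2 higher and 0 lower, and the FaDu minus HCT116 effect 2 higher; with no filter, HCT116 minus SiHa had 2 higher. Leaving out 1 library gave 3 to 8 higher and 2 to 6 lower in SiHa, 1 to 11 and 0 to 2 in HCT116, 0 to 1 and 3 to 32 in FaDu, and 26 to 31 in the F-test. It gave 0 to 1 and 22 to 26 for FaDu minus SiHa effects, 2 to 7 and 1 to 4 for HCT116 minus SiHa, 0 and 23 to 28 for FaDu minus HCT116, 3 to 7 and 15 to 18 for HCT116 minus SiHa at pH 7.4, and 7 and 17 to 22 for FaDu minus SiHa at pH 6.5. With libraries as labelled, with or without the block, the sign turned in HCT116 for XBP1 (0.47), DNAJB9 (-0.15), FKBP10 (-0.89), HSPA13 (0.15), UBXN8 (-0.32), SEC11C (-0.19), SEC23A (0.10) and BBC3 (-0.35), and in FaDu for CRELD2 (0.0042), EDEM1 (0.13) and NUPR1 (0.46); those fits hold libraries with reads of another line. Over all genes, FaDu had 812 higher and 599 lower, against 4727 and 4388 as labelled, 1363 and 1296 with DESeq2, 1225 and 1341 in 1 fit, 479 higher with no filter, and 38 to 3430 and 28 to 3609 on omissions. HCT116 had 1721 and 2098, with 1145 higher under the block, 593 and 814 with the block as labelled, and as few as 850 and 1348 on omissions. SiHa had 2775 and 3012, and as few as 1736 and 1815 on omissions. Same-numbered libraries correlated at 0.41, 0.01 and 0.11 in SiHa and 0.22 and 0.06 in HCT116, and since not every pair was over 0.1, the numbers were not taken to pair the libraries. No paired analysis was possible in FaDu without the libraries kept apart because only 1 number was shared. The cause of these shifts was not tested. Depth limits DERL3 in HCT116 and FaDu.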
